A study of Homo sapiens with 24 samples.

Results

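The genes described here are 10 inflammatory cytokines and chemokines: CXCL1, CXCL2, CXCL3, CXCL5, CXCL8 (IL8 in older names), CCL20, IL6, IL1A, IL1B and LIF. They were chosen by name, with earlier results of these data known. Every probe that the array files assign to one of them was taken, which gave 14 of the 34127 probes on the array. CXCL1, CXCL2, IL6 and LIF each had more than 1 probe, and such a gene is represented below by its brightest probe, with the other probe beside it. The RNA came from A549 and H1975, established human lung adenocarcinoma cell lines. They received 0.75 mg/ml of the antifibrotic drug Pirfenidone, or as much PBS (the solvent) in the control groups, and were collected after 6 h or 24 h. Line, treatment and time make 8 groups of 3 samples, and each sample was run on a one-color Agilent array, 24 in all. The labels do not say whether replicates were separate cultures, so p-values cover only the spread between these samples. Both lines stand for 1 tumor each, and fewer expressing cells cannot be told apart from less RNA per cell.

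Most of these proteins are secreted alarm signals. The ELR-positive CXC chemokines CXCL1, CXCL2, CXCL3, CXCL5 and CXCL8 bind CXCR2 and draw neutrophils, and CCL20 draws CCR6-bearing lymphocytes and dendritic cells. IL-6 and LIF signal through gp130 (IL6ST) to STAT3, whereas IL-1α and IL-1β bind IL1R1 and switch on NF-κB, which in turn drives many of the other genes. Lung adenocarcinoma cells are known to make several of these factors themselves, in amounts that differ widely between lines.

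CXCL1, CXCL2 and CXCL3 have closely alike promoters, and they are shown because their drug differences in H1975 ran from -0.21 to 1.2 at 6 h. CXCL8, of the same cluster, and IL6 are shown beside them. Of the 10 genes, 9 had a promoter in the RefSeq-based table (GRCh38.p14), which gives 250 bases before and 50 from the start. The NF-κB motif, searched on both strands as the kB consensus, was found in the promoters of CXCL1, CXCL2, CXCL3, CXCL5, CCL20 and IL6 and in 5.91% of all 35116 promoters. The stretches below are the 100 bases before the start, read on the gene's strand, with the matched letters in capitals. They lie at chr4:73869293-73869392 (plus strand, CXCL1), chr4:74099196-74099295 (minus strand, CXCL2), chr4:74038690-74038789 (minus strand, CXCL3), chr4:73740469-73740568 (plus strand, CXCL8) and chr7:22727100-22727199 (plus strand, IL6).
CXCL1: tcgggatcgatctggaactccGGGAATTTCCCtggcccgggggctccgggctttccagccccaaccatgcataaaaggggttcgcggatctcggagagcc
CXCL2: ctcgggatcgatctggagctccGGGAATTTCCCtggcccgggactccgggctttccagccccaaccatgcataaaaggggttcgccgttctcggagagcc
CXCL3: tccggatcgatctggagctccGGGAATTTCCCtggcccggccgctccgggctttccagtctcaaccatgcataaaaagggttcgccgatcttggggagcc
CXCL8: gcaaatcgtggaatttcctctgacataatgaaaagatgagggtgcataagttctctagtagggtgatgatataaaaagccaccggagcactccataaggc
IL6: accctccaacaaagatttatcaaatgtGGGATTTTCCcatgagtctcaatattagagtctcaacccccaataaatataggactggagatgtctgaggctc

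In a global alignment the CXCL1 and CXCL2 stretches were identical at 94.1% of positions, CXCL1 and CXCL3 at 90%, and CXCL2 and CXCL3 at 89.1%. The CXCL8 stretch was identical to them at 46.2%, 42.9% and 44.8%, and it holds no full match to the kB consensus, GGGRNWYYCC. Its bases tggaatttcc, printed in small letters, differ from that consensus at the first letter only, so the lack of a match does not mean that CXCL8 lacks such a site. The CXCL1, CXCL2 and CXCL3 matches run over both strands, so that 2 overlapping matches cover the capitals. The AP-1 motif TGANTCA, searched on both strands, lay in the promoters of CXCL8 and IL1A and in 7.71% of all promoters. The motif TGATGNAA, read by C/EBP-ATF dimers, was in none of the 9 and in 3.62% of all. A match or its lack describes these letters in this window only.

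Levels are given as the log2 of the background-corrected signal minus the 75th percentile of the array, so that 0 is as bright as that percentile. A level compares arrays for 1 probe and is not set against that of another probe. "Well above background" is the mark the scanner software gave a spot. Tests were run on the 23827 probes with that mark on all 3 arrays of at least 1 group, and 9 of the 10 genes were among them. A difference passed at a limma adjusted p of 0.05 or less together with a log2 difference of at least 1 in size. On an array 62.7% to 69.5% of the probes were well above background and none was saturated. All 6 epithelial markers examined (EPCAM, CDH1, KRT7, KRT8, KRT18, KRT19) were well above background on every array. CDKN2A, whose locus A549 is known to have lost, lay between -2.33 and -0.88 in A549 and between 2.37 and 3.07 in H1975, and its probe was still well above background in A549. Of the 8 leukocyte markers listed, 7 had a probe, and 4 or 5 carried the mark on all 3 arrays of a group, with summed levels of 0.82 to 1.49 in A549 and 1.73 to 2.47 in H1975. PTPRC carried it on all arrays but 1 and CD3E on 1 array. Of the 6 fibroblast markers 2 carried it in A549 (summed level -2.04 to -0.05) and 3 in H1975 (1.34 to 3.05), and of the 4 endothelial markers 1 (-5.54 to -5.02) and 3 (-3.97 to -3.24). The summed levels thus lay higher in H1975, but the single markers did not move together. In PBS at 6 h PTPRC lay at -6.44 to -6.14 in A549 and at -6.74 to -5.92 in H1975. ITGAM lay at -4.53 to -4.33 in A549 and at -7.72 to -7.06 in H1975, and LUM, a fibroblast marker, at -5.56 to -4.75 and -9.66 to -9.02. The part of these markers in the line differences below was not tested.

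The main contrast in these data was between the lines. Without drug, A549 held far more CXCL5, more CXCL1, CXCL2 and CXCL3 and more CCL20 than H1975, whereas H1975 held far more IL6. Of the 9 genes tested, 5 passed as lower and 1 as higher in H1975 in PBS at 6 h, and the counts at 24 h were again 5 and 1. These counts include CCL20 and IL6, each of which met the probe filter only through the line in which it was higher. CCL20 did not pass at either time with another background correction (normexp). Of all tested probes 15.3% passed as lower at 6 h and 4071 of 23827 as higher (32.4% together), and at 24 h 14.9% passed as lower and 18% as higher (32.9%), so a difference between the lines was common on the whole array.

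CXCL5, a neutrophil attractant of epithelial cells (probe at hg19 chr4:74861898-74861957, minus strand), showed the widest gap among the chemokines. Its levels in PBS at 6 h were 3.71, 3.81 and 4.0 in A549 and -2.09, -2.05 and -1.84 in H1975. At 24 h they were 3.52, 3.47 and 3.50 in A549 and -2.63, -2.29 and -2.74 in H1975. The ranges lay far apart at both times, and the fitted differences of -5.83 (SE 0.149, adjusted p = 6.1e-17) and -6.05 (SE 0.149, adjusted p = 3.4e-17) amount to 57.0-fold and 66.4-fold higher levels in A549.

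CXCL1 (brightest probe at hg19 chr4:74736850-74736909, plus strand), the classic growth-regulated chemokine, lay at -0.13, 0.28 and 0.17 in A549 and at -2.53, -1.94 and -2.02 in H1975 in PBS at 6 h. The difference was -2.27 (SE 0.372, adjusted p = 3.2e-05) at 6 h and -2.81 (SE 0.372, adjusted p = 2.5e-06) at 24 h, and the second probe gave -1.85 and -2.22. For CXCL2 the differences were -1.67 (SE 0.261, adjusted p = 1.9e-05) and -1.92 (SE 0.261, adjusted p = 3.5e-06). Its second probe, whose listed transcripts include that of CXCL3, gave -1.86 and -2.04, so the CXCL2 and CXCL3 values are not fully separate on that probe. CXCL3 differed by -2.22 (SE 0.295, adjusted p = 2.7e-06) and -2.77 (SE 0.295, adjusted p = 1.4e-07). All A549 arrays lay above all H1975 arrays for these 3 genes at both times, a separation that 31.6% of the probes had in this direction at 6 h and 29.2% at 24 h.

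CCL20 (probe at hg19 chr2:228681100-228681836, plus strand, across an intron) was well above background on all 3 A549 arrays in PBS at each time and on no H1975 array. With the main background correction its A549 level was therefore at least 4.09-fold higher than in H1975 at 6 h. At 24 h the bound was 2.51-fold. These bounds were not tested. The limma adjusted p of 7.2e-06 at 6 h and 5.2e-06 at 24 h belong to the measured differences of -3.30 and -3.38. Those differences use H1975 signal that was not well above background. With normexp background correction the measured CCL20 difference shrank to -1.19 at 6 h and -1.03 at 24 h, less than these bounds. It no longer passed, with adjusted p = 0.104 and 0.163.

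IL6 (probe at hg19 chr7:22771207-22771266, plus strand), the acute-phase cytokine, ran the other way. In PBS at 6 h it lay at 0.15, -0.19 and -0.13 in H1975 and at -6.53, -5.81 and -7.85 in A549, where 2 of 3 arrays were well above background. The H1975 arrays stood together and the A549 arrays spread over more than 2 log2 units near background. All H1975 arrays lay above all A549 arrays at both times, as for 34.7% of the probes in this direction at 6 h and 34.5% at 24 h. The difference was 6.67 (SE 0.752, adjusted p = 3.2e-07) at 6 h and 5.67 (SE 0.752, adjusted p = 2.6e-06) at 24 h. The A549 PBS array of replicate 3 was not well above background at either time, and without both A549 arrays of replicate 3 at 24 h the difference was 4.72. IL6 met the probe filter only through H1975 and CCL20 only through A549, the line in which each was higher. The other IL6 probe, made for a predicted transcript, was not well above background on any of the 24 arrays.

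LIF (brightest probe at hg19 chr22:30636713-30636772, minus strand), a gp130 cytokine, was well above background in both lines, with group means between 0.54 and 1.12. It differed by -0.04 (SE 0.128, adjusted p = 0.797) at 6 h and by -0.58 (SE 0.128, adjusted p = 6.9e-04) at 24 h, the latter under the limit on size. Its second, dimmer probe gave 0.36 and 0.07, so the probes disagreed in direction. CXCL8 (probe at hg19 chr4:74609265-74609324, plus strand), the main human neutrophil chemokine, lay near background in both lines and differed by 0.50 (SE 0.502, adjusted p = 0.415) and -0.81 (SE 0.502, adjusted p = 0.176). IL1B (probe at hg19 chr2:113587429-113587488, minus strand) differed by 0.79 (SE 0.533, adjusted p = 0.215) and -0.30 (SE 0.533, adjusted p = 0.649), with overlapping arrays. IL1A (probe at hg19 chr2:113532362-113532421, minus strand), the cell-associated interleukin-1, ranged from -9.71 to -6.88, was not well above background on any array and was not tested. CXCL8 was well above background on 18 of 24 arrays and IL1B on 20.

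**Figure D1:**
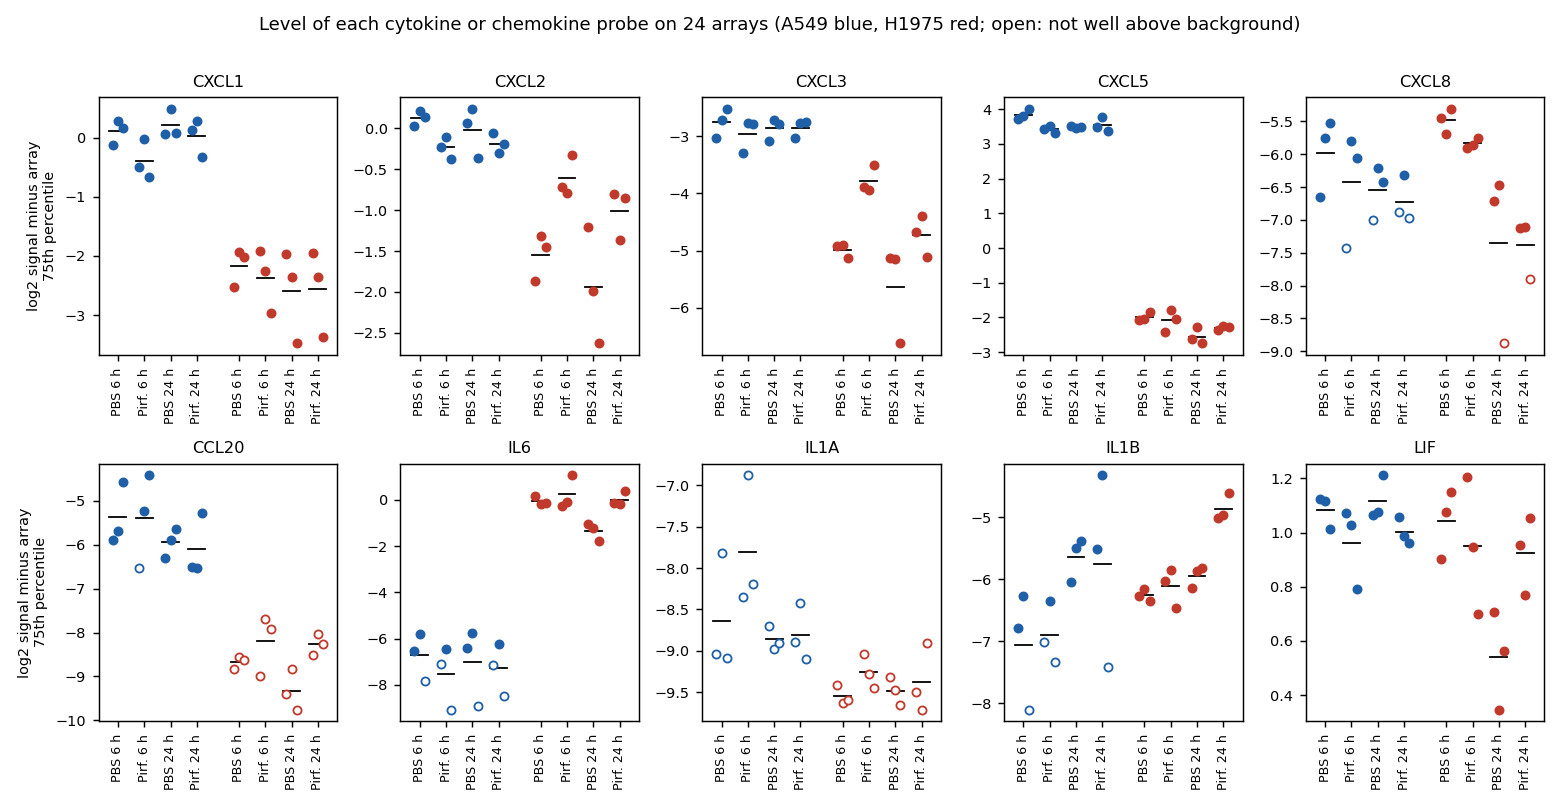
Level of the brightest probe of each of the 10 genes (log2 signal minus the 75th percentile of the array) on the 24 arrays, 3 per group, with the group mean as a line; A549 in blue, H1975 in red, open points not well above background, and a y axis of its own in each panel. CXCL1, CXCL2, CXCL3, CXCL5 and CCL20 lie higher in A549, IL6 lies higher in H1975, and IL1A is open on every array.

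**Figure D2:**
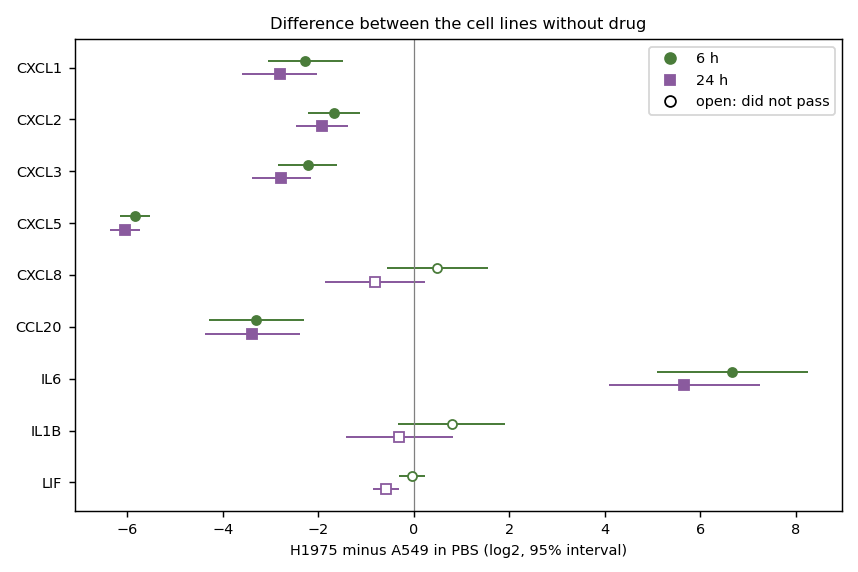
Fitted difference between H1975 and A549 in PBS (log2) at 6 h (circles) and 24 h (squares) for the 9 genes tested, with 95% intervals and open symbols where the difference did not pass. CXCL5 lies near -6, IL6 between 5.67 and 6.67, and CXCL8, IL1B and LIF did not pass at either time; the CCL20 point uses H1975 signals that were not well above background.

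The second question was whether Pirfenidone changed these genes. In A549 none of the 9 passed at 6 h, where 0.176% of all tested probes did, and none at 24 h, where 0.0126% did. At an unadjusted p under 0.05, with no limit on size, limma counted 1 of the 9 genes at 6 h (CXCL5, 6.01% of all probes) and 0 at 24 h (0.953%). A t-test paired by run, without adjustment but with the limit on size, passed 0 at both times. No A549 value reached a size of 1, so that count could only be 0 and says nothing about the paired p. At 6 h 8 of the 9 values were below 0, with a median of -0.36 against -0.01 over all probes. At 24 h 7 of 9 were below 0, with a median of -0.16 against -0.02.

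CXCL5 came closest in A549 at 6 h. It lay at 3.71, 3.81 and 4.0 in PBS and at 3.43, 3.51 and 3.33 with Pirfenidone. All 3 drug arrays were below all PBS arrays, as for CXCL2 and for 8.24% of all probes. The CXCL5 difference was -0.42 (SE 0.149, adjusted p = 0.501), and the pairs of arrays of 1 run gave -0.67, -0.28 and -0.30. A run here is the set of arrays whose files carry the same date. CXCL2 differed by -0.36 (SE 0.261, adjusted p = 1), CXCL1 by -0.50 and CXCL8 by -0.45. The second probes gave -0.36 for CXCL2 and -0.46 for CXCL1. All 3 run pairs lay below 0 for 7 of the 9 genes, CXCL1, CXCL2, CXCL3, CXCL5, CXCL8, IL6 and LIF, as for 29.5% of all probes. IL6 lay near background in A549, with 1 of 3 drug arrays and 2 of 3 PBS arrays well above it, and its difference was -0.81 (SE 0.752). CCL20 differed by -0.02 (SE 0.474) at 6 h and by -0.16 (SE 0.474) at 24 h.

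At 24 h the A549 values ran from -0.26 for IL6 to 0.05 for CXCL5. LIF was the single gene with separate groups, at 1.07, 1.08 and 1.21 in PBS and 1.06, 0.99 and 0.96 with Pirfenidone, a separation that 1.26% of the probes had in this direction. Its difference was -0.12 (SE 0.128, adjusted p = 1). The second LIF probe, well above background on all 24 arrays, was also lower on all drug arrays and gave -0.50 (SE 0.216, unadjusted p = 0.0307, adjusted p = 1), so the limma count of 0 at an unadjusted p holds for the brightest probes. The second probes of CXCL1 and CXCL2 gave -0.03 and -0.10. The replicate 3 pair of this comparison did not deviate together, with a correlation of -0.10 across probes against 0.40 and 0.08 for the other pairs. Without both of its arrays the values ran from -0.61 for IL6 to 0.85 for IL1B and none passed. IL1B was the gene that moved most, since its pair of that run gave -2.03 and the other pairs gave 0.53 and 1.17. On the drug array of the -2.03 pair IL1B was not well above background.

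**Figure D3:**
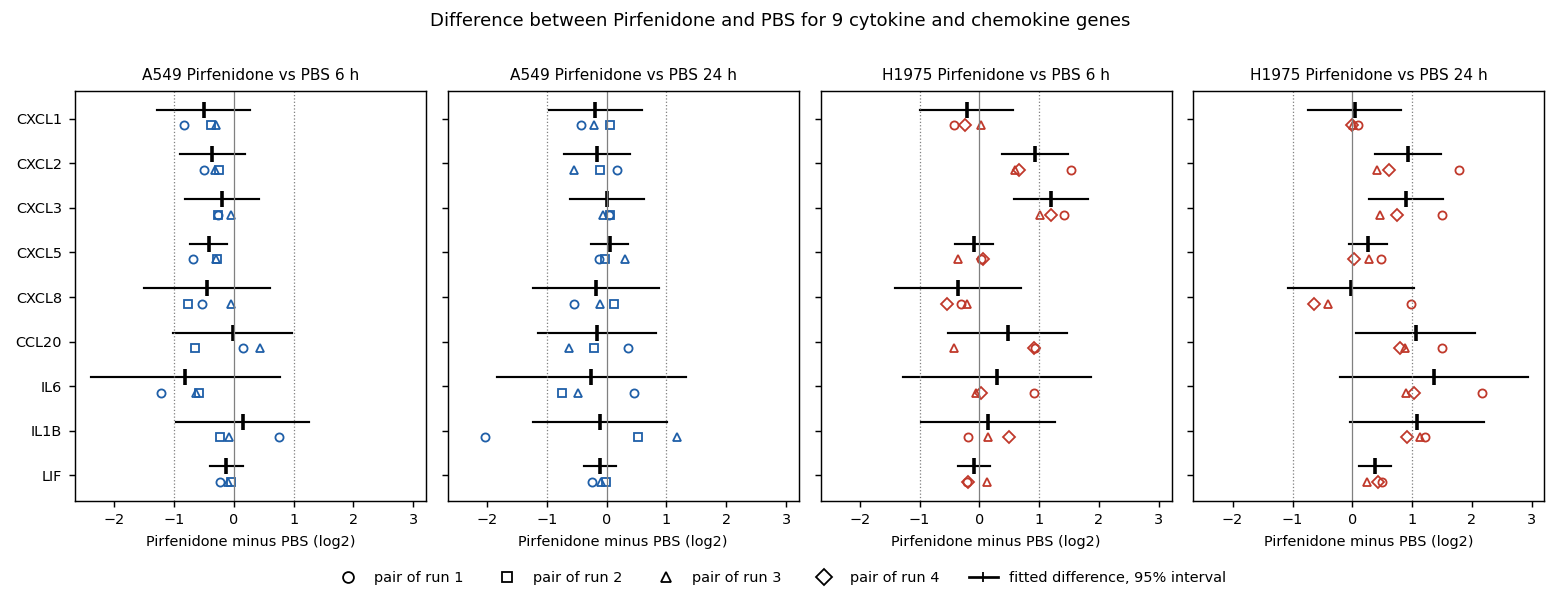
Difference between Pirfenidone and PBS (log2) for the 9 genes tested, in 4 panels of line and time; bars are the fitted differences with 95% intervals, open symbols are the 3 pairs of arrays of 1 run, and dotted lines mark a log2 difference of 1 in either direction. In A549 the values lie close to 0 or below it, and in H1975 all 3 pairs lie above 0 for CXCL2 and CXCL3 at 6 h and for every gene but CXCL8 at 24 h, where the CXCL1 pairs lie close to 0.

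In H1975 CXCL3, a neutrophil chemokine, rose with Pirfenidone at 6 h. CXCL2 was 0.93 higher at both times without passing, and CXCL1 differed by -0.21 at 6 h and 0.04 at 24 h, a contrast between genes that was not tested. At 6 h, 1 of the 9 genes passed, CXCL3, in a comparison in which 0.491% of all tested probes passed and 0.399% passed as higher. At an unadjusted p under 0.05, limma counted CXCL2 and CXCL3, and 11% of all probes. CXCL3 (probe at hg19 chr4:74902702-74902761, minus strand) lay at -4.91, -4.90 and -5.13 in PBS and at -3.89, -3.94 and -3.51 with Pirfenidone. All drug arrays were above all PBS arrays, as for 10.6% of the probes in this direction. The difference was 1.2 (SE 0.295, adjusted p = 0.0492), a 2.30-fold rise, and the run pairs gave 1.41, 1.01 and 1.19. All 3 run pairs were above 0 for CXCL3 and CXCL2, as for 31.8% of all probes. The adjusted p was close to the limit. Leaving out any 1 of the 6 arrays gave differences of 1.07 to 1.28 with adjusted p between 0.0988 and 0.183, so the call ended each time while the difference stayed above 1. On the 6 arrays compared alone CXCL3 did not pass (adjusted p = 0.103), in a fit in which 0.0168% of all probes passed.

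CXCL2 (probe at hg19 chr4:74962985-74963044, minus strand) showed a like separation. It lay at -1.86, -1.32 and -1.45 in PBS and at -0.72, -0.79 and -0.32 with Pirfenidone at 6 h, again without overlap. The difference was 0.93 (SE 0.261, adjusted p = 0.0952), and it did not pass. Its second probe gave 0.85 (SE 0.260, adjusted p = 0.141). With the run as a block the adjusted p of CXCL2 was 0.0483, still under the limit on size.

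The other genes showed no common direction at 6 h in H1975. CXCL1 lay at -2.53, -1.94 and -2.02 in PBS and at -1.91, -2.26 and -2.96 with Pirfenidone, and its difference of -0.21 (SE 0.372, 95% interval -0.99 to 0.57) had overlapping arrays. The second CXCL1 probe gave 0.09. CXCL8 lay lower on all 3 drug arrays, as for 7.16% of the probes in this direction, with a difference of -0.35 (SE 0.502, adjusted p = 0.917), and all 3 run pairs were below 0, as for 21.7%. With normexp background correction the CXCL8 value turned to 0.88 (adjusted p = 0.178), and the values of CXCL1 and CXCL5 turned to 0.06 and 0.15. CXCL5, LIF, IL1B and IL6 differed by -0.09, -0.09, 0.15 and 0.29, each with overlapping arrays, and the second LIF probe gave -0.12. Of the 9 values 5 were above 0, and their median was 0.15 against 0.05 over all probes.

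At 24 h in H1975, 8 of the 9 values were above 0, with a median of 0.90 against 0.02 over all probes, yet none passed, where 1.89% of all probes did. Without the PBS array of replicate 3 the median was 0.41 and 7 of 9 values were above 0, with CXCL1 at -0.40 and CXCL8 at -0.79. All 3 run pairs were above 0 for 8 of the 9 genes, all but CXCL8, as for 34.6% of all probes, although the largest CXCL1 pair was 0.10. At an unadjusted p under 0.05, limma counted 4 of the 9 genes (CXCL2, CXCL3, CCL20 and LIF) and 22% of all probes. The t-test paired by run, without adjustment but with the limit on size, passed IL1B and CCL20 (2.2% of all probes), and none after Benjamini-Hochberg adjustment. The limma count at an unadjusted p had no limit on size, so these 2 counts and their shares are not set against each other. All drug arrays lay above all PBS arrays for 5 genes (CXCL3, CCL20, IL6, IL1B and LIF), as for 16.3% of all probes in this direction. CCL20 was not well above background on any of the 12 H1975 arrays, so its drug values in H1975, here and under the alternatives below, rest on signal near background.

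IL6 had the widest difference at 24 h in H1975. It lay at -1.06, -1.22 and -1.79 in PBS and at -0.15, -0.18 and 0.37 with Pirfenidone. The groups did not overlap, and the run pairs gave 2.16, 0.90 and 1.04. The difference was 1.37 (SE 0.752, 95% interval -0.21 to 2.94, adjusted p = 0.304). The fit shares 1 spread over all 8 groups, and the IL6 arrays of A549, near background, had an SD of 1.04 to 1.67 against 0.18 to 0.72 in H1975. Fitted on the 6 arrays compared, the adjusted p of IL6 was 0.0575.

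CXCL2 at 24 h lay at -1.21, -1.99 and -2.63 in PBS and at -0.80, -1.37 and -0.85 with Pirfenidone. One PBS array reached into the drug group. The difference was 0.93 (SE 0.261, adjusted p = 0.0403), under the limit on size, and the second probe gave 0.78 (adjusted p = 0.0797). CXCL3 lay at -5.13, -5.15 and -6.62 in PBS and at -4.67, -4.40 and -5.11 with Pirfenidone, with a difference of 0.90 (SE 0.295, adjusted p = 0.0743). The PBS array of replicate 3 was the lowest for both genes and for CXCL1, CXCL8 and IL6. Without it the difference was 0.59 for CXCL2 (adjusted p = 0.170) and 0.41 for CXCL3 (adjusted p = 0.294), while IL6 gave 1.15 and IL1B 1.15. Without the PBS array of replicate 1, CXCL2 passed (1.3, adjusted p = 0.0105), as it did without the drug array of replicate 2 (1.12, adjusted p = 0.0348).

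IL1B, the secreted interleukin-1 that inflammasomes process, lay at -6.15, -5.87 and -5.82 in PBS and at -5.02, -4.96 and -4.61 with Pirfenidone in H1975 at 24 h. All 6 arrays were well above background, and the groups stood apart. The difference was 1.08 (SE 0.533, adjusted p = 0.244), with run pairs of 1.22, 1.13 and 0.91. On the 6 arrays compared alone, IL1B passed (adjusted p = 0.0497), in a fit in which 0.6% of all probes passed. LIF lay at 0.71, 0.35 and 0.56 in PBS and at 0.95, 0.77 and 1.05 with Pirfenidone, with a difference of 0.39 (SE 0.128, adjusted p = 0.0782). The second LIF probe gave -0.26 (SE 0.216), so the probes disagreed in direction. CXCL5 gave 0.26 (SE 0.149, adjusted p = 0.321), CXCL1 0.04 (SE 0.372, 95% interval -0.74 to 0.82; 0.16 on the second probe) and CXCL8 -0.02 (SE 0.502).

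In H1975 at 24 h the replicate numbers matched the runs. With the replicate number as a block, IL6 passed (1.37, adjusted p = 0.0175), where 2.3% of all probes did, and CCL20, not well above background, had an adjusted p of 0.0294. CXCL2 (0.93, adjusted p = 0.0464) and CXCL3 (0.90, adjusted p = 0.0383) stayed under the limit on size. With the run as a block no gene above background passed (2.45% of all probes), and with the run as a block within each line IL6 did (2.95%). With the slide as a random block CXCL2 (1.04, adjusted p = 0.00731) and IL6 (1.5, adjusted p = 0.0294) passed (2.93%). The CCL20 signal met the limits in these 3 fits too. IL6 also passed with normexp background correction (1.3, adjusted p = 0.0425; 0.726% of all probes), and CXCL2 passed where no limit on size was set (6.26%).

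**Figure D4:**
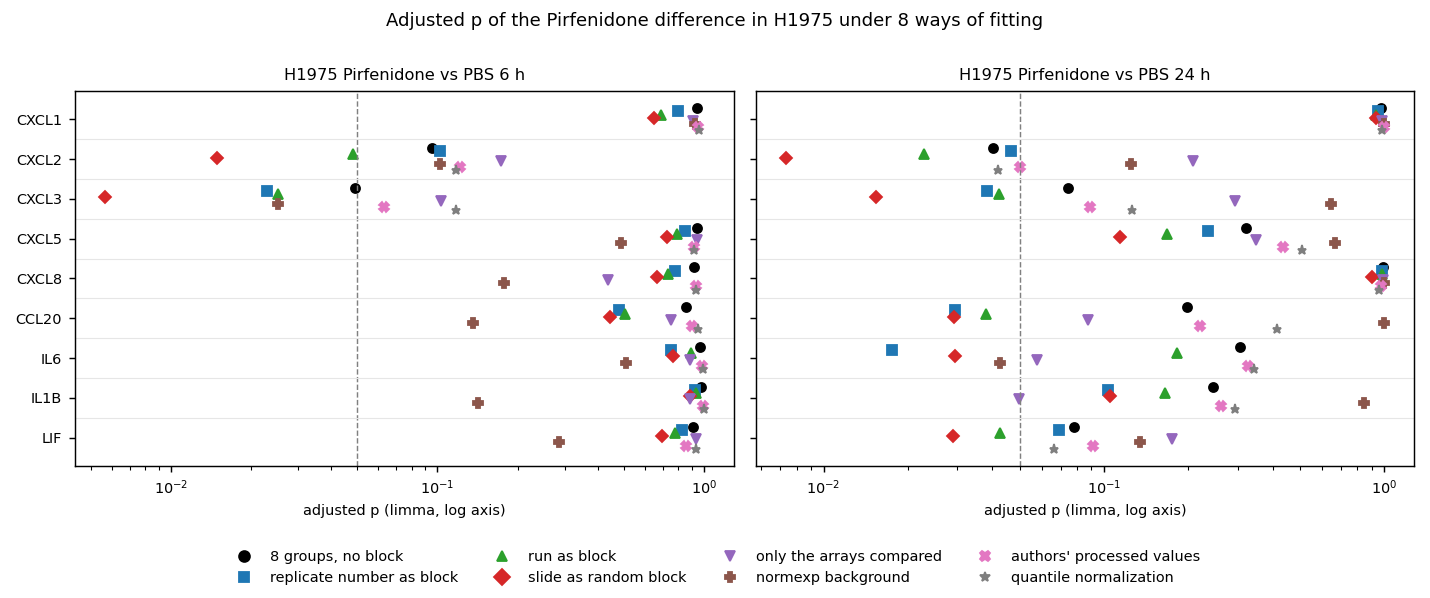
Adjusted p (log axis) of the Pirfenidone difference in H1975 at 6 h and 24 h for the 9 genes under 8 ways of fitting, each a symbol; the dashed line marks 0.05. At 6 h CXCL2 and CXCL3 lie on both sides of the line and the other genes lie above it in all 8; at 24 h CXCL2, CXCL3, IL6, CCL20 (not well above background), IL1B and LIF change side and CXCL1, CXCL5 and CXCL8 do not.

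The difference between the lines in the drug response was tested directly. The H1975 value minus the A549 value was above 0 for 9 of 9 genes at both times, with medians of 0.33 at 6 h and 0.89 at 24 h against 0.05 and 0.06 over all probes. At 6 h IL1B (0.001), LIF (0.03) and CXCL8 (0.09) lay close to 0, and the share of all probes above 0 was not counted. None of the 9 genes passed at either time, where 0.0336% and 0.193% of all probes did. At an unadjusted p under 0.05, limma counted CXCL2 and CXCL3 at 6 h (2.63% of all probes), and CXCL2, CXCL3 and LIF at 24 h (12.2%). The widest values were 1.4 for CXCL3 (SE 0.417, adjusted p = 0.706) and 1.29 for CXCL2 (SE 0.369, adjusted p = 0.605) at 6 h, and 1.62 for IL6 (SE 1.06, adjusted p = 0.591) 1.22 for CCL20 (SE 0.671, not well above background in H1975) and 1.19 for IL1B (SE 0.754, adjusted p = 0.571) at 24 h, when CXCL2 gave 1.1 (SE 0.369, adjusted p = 0.214). The second CXCL2 probe gave 1.21 at 6 h and 0.88 at 24 h, and the second LIF probe 0.25 at 24 h. At 24 h IL6 passed with the run as a block within each line (adjusted p = 0.0420; 1.67% of all probes), and CXCL2 with the slide as a random block (1.21, adjusted p = 0.0451; 1.64%). The drug response did not pass a test of difference between the times either, in A549 (0 of 9; 0.0294% of all probes) or in H1975 (0 of 9; 0.0042%). At an unadjusted p under 0.05, limma counted CXCL5 in A549 (3.04% of all probes) and LIF in H1975 (5.86%), where the brightest LIF probe gave 0.48 and the second -0.14.

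Several of these genes were lower at 24 h than at 6 h in H1975 without drug, and none passed, where 0.315% of all probes did. CXCL8 lay at -5.44, -5.70 and -5.31 at 6 h and at -6.72, -6.46 and -8.88 at 24 h, where the lowest array was not well above background. The difference was -1.87 (SE 0.502, adjusted p = 0.103), and -1.11 without that array. With the replicate number as a block CXCL8 (adjusted p = 0.0345) and IL6 (-1.30, adjusted p = 0.0499) passed, where 0.621% of all probes did. That block joined arrays of different runs here. Replicates 1, 2 and 3 in PBS were runs 1, 3 and 4 at 6 h and runs 3, 4 and 1 at 24 h. CXCL8 also passed with the run as a block (0.713%) and with the slide as a random block (1.1%), and both genes passed with the run as a block within each line (1.18%). CXCL5 differed by -0.56 (SE 0.149, adjusted p = 0.0981), LIF by -0.50 (SE 0.128, adjusted p = 0.0836) and CXCL3 by -0.65 (SE 0.295, adjusted p = 0.435). Without the PBS array of replicate 3 at 24 h CXCL3 differed by -0.16, CXCL5 by -0.47, LIF by -0.52 and IL6 by -1.08. The second LIF probe gave -0.08 with all arrays. All 24 h arrays lay below all 6 h arrays for CXCL3, CXCL5, CXCL8, IL6 and LIF, as for 8.23% of all probes, and above them for IL1B, as for 10.7%. At an unadjusted p under 0.05, limma counted 4 of the 9 (CXCL3, CXCL5, CXCL8 and LIF), and 10.6% of all probes. These PBS arrays are also the controls of the drug comparisons.

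In A549 in PBS, IL1B was higher on all 24 h arrays, at -6.05, -5.50 and -5.39 against -6.79, -6.27 and -8.10 at 6 h, the last not well above background. The difference was 1.41 (SE 0.533, adjusted p = 0.475). CXCL5 was lower on all 24 h arrays, with a difference of -0.34 (SE 0.149, adjusted p = 0.552). None of the 9 genes passed, where 0.109% of all probes did, and limma counted CXCL5 and IL1B at an unadjusted p under 0.05 (8.49% of all probes). Separate groups were found for 8.21% of all probes in the higher and 6.82% in the lower direction.

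The members were next set beside each other. In H1975 the levels of CXCL2 and CXCL3 correlated with a Pearson r of 0.85 over the 12 arrays, those of IL6 and CXCL2 with 0.76 and those of IL6 and CXCL3 with 0.74. CXCL1, in contrast, had an r of 0.26 with CXCL2 and 0.38 with CXCL3 there, and IL1B had 0.11 and -0.11. In A549 CXCL1 and CXCL2 had an r of 0.61 and CXCL2 and CXCL3 an r of 0.19. These arrays share treatment groups, runs and slides, so the values are descriptions. Among 19154 probes in H1975, the genes most like IL6 were SH2D2A (r of 0.96), CDC37L1 (0.95) and ZFP69 (0.94), and most like CXCL3 were PITPNC1 (0.95), MBIP (0.94) and TIGD2 (0.94). The genes most like CXCL2 were SPECC1L (0.93), CGRRF1 (0.92) and TUBE1 (0.92). Among 18383 probes in A549, ADAT2 (0.90), TPRA1 (0.87) and AK130724 (0.87) were most like CXCL5.

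A list of 97 other genes of these pathways (receptors, inhibitors, NF-κB, C/EBP and STAT3 factors, NF-κB targets, IL-1 processing genes and other cytokines) was read in the same fit, and 81 of them were tested. None passed in A549 at 6 h or 24 h, where 0.176% and 0.0126% of all tested probes did. None passed in H1975 at 24 h either (1.89% of all probes), and 1 passed in H1975 at 6 h (0.491%). The medians of the list were -0.04, -0.03, 0.02 and 0.16 in A549 at 6 h and 24 h and H1975 at 6 h and 24 h. Over all probes they were -0.01, -0.02, 0.05 and 0.02 in the same order. The gene that passed was IL24, a cytokine of the IL-10 family, and it fell. It lay at 0.64, 0.66 and 0.80 in PBS and at -0.31, -0.53 and -0.97 with Pirfenidone, with a difference of -1.30 (SE 0.177, adjusted p = 8.7e-04). At 24 h IL24 differed by -0.78 (SE 0.177, adjusted p = 0.0156), under the limit on size. In A549 IL24 was not well above background on any array.

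Without drug, 23 of the 81 genes tested passed as higher and 18 as lower in H1975 at 6 h, where 4071 of all 23827 probes passed as higher and 15.3% as lower. At 24 h 23 passed as higher and 17 as lower, against 18% and 14.9% of all probes. The receptors for these ligands were unevenly present. CXCR1 and CXCR2 were not well above background on any array, whereas CCR6, IL1R1, IL6R, IL6ST and LIFR were well above it on all 24. LIFR, the LIF receptor, was higher in H1975 by 2.19 (SE 0.253, adjusted p = 4.3e-07) at 6 h and 2.10 (SE 0.253, adjusted p = 7.4e-07) at 24 h. IL6ST was lower there by -0.61 and -0.84, under the limit on size. IL1RN, the antagonist of the IL-1 receptor, was well above background on every H1975 array and on no A549 array. IL1R2, the decoy receptor, was well above it on every A549 array and on 2 of 12 H1975 arrays. Of the 12 NF-κB subunits and kinases none passed in any of the 4 drug comparisons, and RELA differed by 0.01 (SE 0.112) and -0.02 (SE 0.112) in H1975 at 6 h and 24 h. The 9 NF-κB targets tested had medians of -0.11 and -0.04 in A549 and -0.22 and 0.46 in H1975 at 6 h and 24 h. None of them passed. Over all probes the median in H1975 at 24 h was 0.02, and for the subunits and kinases it was 0.01. Activity of NF-κB was not measured. CEBPB lay higher on all H1975 drug arrays, by 0.82 (SE 0.234, adjusted p = 0.104) at 6 h and 0.57 (SE 0.234, adjusted p = 0.158) at 24 h. It passed at neither time, and 10.6% of all probes at 6 h and 16.3% at 24 h were separate in this direction. Between times in PBS, BIRC3 (-1.60, SE 0.197, adjusted p = 4.5e-04) and IL24 (-1.76, SE 0.177, adjusted p = 4.4e-05) were lower at 24 h in H1975. CSF2 was lower at 24 h in A549 (adjusted p = 0.0350), where it was well above background on 2 of 3 arrays at 6 h and on none at 24 h.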

How the data were processed

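Spot intensity was extracted by the authors with Agilent's software, and the deposited scanner files give it background-subtracted and not normalized between arrays. A second deposited file of the authors holds log2 values centered per probe on the median of the 24 arrays, with column medians of -0.163 to 0.156 and the direction of the scanner values (r of 0.9994 for differences between arrays). Its scaling between arrays is unknown here. Groups came from the sample labels.

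Outlier and control spots were left out, the 75th percentile over an array's spots was subtracted on the log2 scale, and spots of 1 probe were averaged. A probe counted as well above background where the mark was on 0.5 or more of its spots, taken as a share. limma 3.58.1 (R 4.3.3, lmFit and eBayes) fitted the 8 groups with 16 residual degrees of freedom, and p-values were adjusted by Benjamini-Hochberg over all 23827 tested probes. The methods given for the arrays name a moderated test with a fold limit and a Westfall-Young permutation. Permuting 3 against 3 arrays cannot give a p below 0.1, so the Benjamini-Hochberg adjustment took its place. In simulated arrays with 200 changed probes, 81% to 87% of changes of log2 1.5 were recovered over the 4 drug comparisons. The changed probes were drawn at random, and the noise had 1 spread per probe and no runs or slides. The share is thus not the power for a single member. The drug differences had an SE of 0.752 for IL6, 0.533 for IL1B, 0.502 for CXCL8 and 0.474 for CCL20.

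The members and gene lists were chosen with earlier results of these data known. Every probe of the members was read. Genes of the pathway list were named where they passed in a drug comparison or as receptors and inhibitors of the members, while RELA, CEBPB and the genes named for the time comparisons were chosen after their values were seen. Deviations from the group means correlated by replicate number in A549 at 6 h (0.70, 0.58 and 0.64) and in H1975 at 24 h (0.46, 0.53 and 0.72), and not in H1975 at 6 h (-0.48, 0.43 and -0.68), where arrays of 1 run did (0.50, 0.70 and 0.82). The arrays lay on 7 slides in 4 runs. Alternatives were normexp background correction, quantile normalization, the authors' values, other probe filters, blocks for replicate number, run and slide, the arrays compared alone, Holm adjustment, no limit on size, a t-test paired by run, the mean of a gene's probes and leaving out each array. The run as a block within each line was chosen after seeing the data. Probe positions are those of the array files (hg19). The number of arrays limits the precision.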

Additional observations from a re-analysis of the deposited data

How the results depend on the processing

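The number of the 9 tested genes that passed kept within 1.5 times its value in 8 of the 12 comparisons under every alternative run, and no value that passed changed sign. Of all 108 single-gene values, those that passed included, 17 changed sign with normexp and 6 with quantile normalization. The mean of a gene's probes and the authors' values changed 3 each, and the run and the slide as a block 1 each. Leaving out arrays changed 95 of 909. In H1975 at 6 h the 1 gene that passed, CXCL3, became 0 with quantile normalization, the authors' values, no filter on dim probes, only the arrays compared, Holm adjustment and the t-test paired by run after adjustment, and leaving out 1 array gave 0 to 0. In H1975 at 24 h the 0 genes became 1 with normexp (IL6), the run as a block (CCL20), only the arrays compared (IL1B) and no limit on size (CXCL2), 2 with the replicate block (IL6 and CCL20), with the run within each line as a block and with the t-test paired by run (CCL20 and IL1B), and 3 with the slide as a random block (CXCL2, CCL20 and IL6), and leaving out 1 array gave 0 to 1. For 24 h against 6 h in PBS in H1975 the 0 became 2 with the replicate block and with the run within each line as a block (CXCL8 and IL6), and 1 with the run as a block and with the slide as a random block (CXCL8). For the difference between the lines in the drug response at 24 h the 0 became 1 with the run within each line as a block (IL6) and with the slide as a random block (CXCL2). The replicate block changed no other count of these genes beyond 1.5 times. The causes were not tested, except that fewer arrays enter the fits of only the arrays compared. Normexp moved the median of all probes in H1975 at 6 h from 0.05 to 0.29. These counts include CCL20, not well above background on any H1975 array. Signal over background also limits IL6 and IL1B in A549, and CXCL8 and IL1A in both lines.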
